A study of Rattus norvegicus with 24 samples.

Results

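The interferon response genes described here are 9 rat genes that cells switch on, or use to relay the signal, when interferon binds its receptors. They are the probes of the array whose platform gene symbol is Irf1, Irf7, Irf9, Stat2, Isg15, Mx1, Mx2, Ifit2 or Ifit3. All 9 had a single probe, among 14324 genes with a symbol on the array, and all 9 passed the filter on low values (a mean log2 intensity above 5.05), although Mx1 lay at or below that level on 4 of 24 arrays and Irf1 on 2.

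The RNA came from thoracic propriospinal (TPS) neurons, which link the thoracic cord to the lumbosacral enlargement, of female Long Evans rats (labelled 77 ± 10 days old). In every animal, the controls included, Fluoro-Gold had been injected into the lumbosacral enlargement after a laminectomy, and at least 200 labelled neurons per animal were cut out one by one with a laser and pooled. The transected animals then had a complete T9 transection 1 week after the injection and were taken after 3 days (n = 4), 1 week (n = 4), 2 weeks (n = 2) or 1 month (n = 2), while the uninjured controls are labelled 4 days, 2 weeks and 1 month (n = 4 each), which the study counts as 10 days, 3 weeks and 5 weeks from labeling. The 4-day controls served for both the 3-day and the 1-week comparison, so these 2 comparisons share their control arrays. By the study's account the 1-week animals were taken 2 weeks after labeling and these controls 10 days after it. Time from labeling and transection thus cannot be told apart in the 1-week comparison. Each array held the neurons of 1 animal, and p-values measure the spread between these animals, pooled over all groups.

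Interferons are secreted proteins that a cell releases when its sensors meet foreign or misplaced nucleic acid. The type I receptor works through the kinases Jak1 and Tyk2, which phosphorylate Stat2, and Stat2 and Irf9 are parts of the complex ISGF3, which binds the interferon-stimulated response element (ISRE) in the promoters of its targets. Interferon gamma acts on its targets through another promoter element, the gamma-activated site (GAS), and Irf1 is one of its early targets. In the nervous system microglia and astrocytes are known as strong responders, and neurons respond as well.

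Promoter sequence shows which members carry the DNA words that these factors read. Windows from 250 bases before to 50 bases after the gene start (RefSeq, build GRCr8) were matched for 6 of the 9 members, Irf1, Irf7, Irf9, Stat2, Mx1 and Ifit3. Isg15, Mx2 and Ifit2 had no entry. An ISRE core was searched as GAAA and again GAAA with any 2 bases between them, and a GAS as TTC and GAA with any 3 bases between them, on both strands, and neither word overlapped the other in the stretches shown. The stretches below run 5′ to 3′ along the strand of the gene, with the match in capitals, and the ISRE matches read as the reverse complement of the core.
Irf7, ISRE core, chr1:205800048-205800127, minus strand: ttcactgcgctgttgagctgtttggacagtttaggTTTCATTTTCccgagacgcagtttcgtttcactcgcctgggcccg
Ifit3, ISRE core, chr1:241527247-241527325, plus strand: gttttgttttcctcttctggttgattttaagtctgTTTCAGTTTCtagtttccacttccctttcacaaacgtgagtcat
Irf1, GAS, chr10:38417758-38417836, plus strand: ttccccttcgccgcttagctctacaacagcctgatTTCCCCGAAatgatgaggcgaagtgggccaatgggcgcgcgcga
Irf9, GAS, chr15:33065702-33065780, plus strand: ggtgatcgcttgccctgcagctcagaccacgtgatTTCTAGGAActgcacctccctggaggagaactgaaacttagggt
The ISRE matches lie 69 to 60 bases before the start of Irf7 and 44 to 35 bases before that of Ifit3, and the GAS matches lie 142 to 134 bases before the start of Irf1 and 99 to 91 bases before that of Irf9. The ISRE core was found in 2 of 6 member windows, in 19 of 35 windows of other type I effectors and in 1312 of all 33469 windows (3.92%). The GAS was found in 2 of 6 member windows and in 2970 of 33469 (8.87%). These matches describe the letters only.

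Arrays were alike as a whole, with array medians of 6.20 to 6.35 on the log2 scale and correlations between arrays of 0.955 to 0.990. Neuronal markers were present on all 24 arrays, from Snap25, a synaptic vesicle fusion protein, at 12.10 to 12.41 down to Rbfox3 at 8.20 to 9.25. Summed intensity ran from 26274 to 29822 for 10 neuronal markers. Markers of other cells were present too. Over the 24 arrays the sums ran from 8458 to 14399 for 7 astrocyte markers and from 6202 to 8502 for 6 oligodendrocyte markers. The sum of 15 microglia and macrophage markers ran from 2247 to 6086 in the 4-day controls, 2513 to 3319 in the 2-week controls and 2454 to 2907 in the 1-month controls. After transection it was 7768 to 10567 at 3 days, 5357 to 7414 at 1 week, 4166 to 5540 at 2 weeks and 3792 to 4161 at 1 month. In such pools fewer cells of a type and less RNA per cell cannot be told apart.

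The members differed far more between animals of 1 group than most genes did, and 4 arrays stood apart from the other 20. These were arrays 1 and 4 of the uninjured 4-day controls, array 1 of the 1-week transected group and array 3 of the 2-week transected group. They held the 4 highest values of all 24 arrays for 6 of the 9 members (Irf7, Isg15, Mx1, Mx2, Ifit2 and Ifit3), while 27 of 23240 probes (0.116%) had the same 4 arrays on top. The arrays were picked for these values, so the counts are a description. Fits without these 4 arrays, given below, were added after the values were seen. Dropping arrays picked for high values removes spread, so the SE and adjusted p of those fits are too small. They serve as a description only.

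Isg15, a small ubiquitin-like protein that is attached to other proteins, spanned a 12.5-fold range of intensity over the 24 arrays. Its log2 intensity was 10.58, 8.46, 6.94 and 10.48 in the 4-day controls (arrays 1 to 4), 10.22, 8.92, 8.89 and 8.05 at 1 week after transection (arrays 1, 2, 4 and 5) and 9.99 and 8.96 at 2 weeks (arrays 3 and 4). In the remaining groups it was 7.98, 7.99, 8.20 and 7.74 in the 2-week controls, 7.93, 7.71, 8.04 and 8.34 in the 1-month controls, 7.49, 8.16, 7.62 and 7.91 at 3 days and 8.10 and 7.96 at 1 month. Uninjured animals thus held both the 2 highest values and the lowest one, and the 4 high arrays lay at least 1.03 above every other array.

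Mx1, a dynamin-like GTPase that blocks virus replication, had the widest range of the members, 14.4-fold. It measured 8.67, 5.90, 5.05 and 8.27 in the 4-day controls, 8.78, 6.55, 6.50 and 6.22 at 1 week and 7.98 and 6.82 at 2 weeks after transection. The 2-week controls measured 5.28, 5.28, 5.09 and 4.96 and the 1-month controls 5.31, 5.07, 5.01 and 5.28. The 3-day animals measured 4.93, 6.38, 5.30 and 5.47 and the 1-month transected animals 5.74 and 5.25. Except for the 6.38 of array 2 at 3 days, these values lay near the low end of the array's range, where folds are understated. The 4 high arrays lay at least 1.15 above the rest. All 3 other 1-week animals lay above all 8 of the later controls, which are not their matched controls. The share of all probes for which this held was not counted. Those 3 animals lay within the range of the matched 4-day controls.

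Mx2, a related GTPase whose gene neighbours Mx1, followed the same arrays. It measured 10.29, 8.32, 6.97 and 10.16 in the 4-day controls, 10.13, 8.50, 9.29 and 8.55 at 1 week and 10.24 and 9.15 at 2 weeks after transection. Its 4 highest values differed by little among themselves (10.13 to 10.29) and lay at least 0.85 above the fifth.

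Irf7, the transcription factor that amplifies type I interferon production, measured 7.67, 6.41, 5.93 and 7.85 in the 4-day controls, 8.13, 6.74, 6.65 and 6.34 at 1 week and 7.23 and 6.48 at 2 weeks after transection. Its next highest array lay 0.49 below the lowest of the 4. Ifit2 and Ifit3, neighbouring genes for proteins that bind viral RNA and its complexes, showed gaps of 0.48 each. Ifit3 measured 9.23, 7.82, 6.13 and 8.89 in the 4-day controls, 9.09, 7.32, 7.42 and 7.37 at 1 week and 8.42 and 7.87 at 2 weeks, and Ifit2 measured 9.23, 8.16, 7.88 and 9.38, then 9.32, 8.22, 8.10 and 7.57, then 8.88 and 8.40. In 3 of these 6 genes the fifth highest array was array 4 of the 2-week transected group, and in the rest it was another transected array. Array 4 of the 2-week transected group was among the 8 highest in 6 of 6. The 6 genes were grouped for sharing their top arrays and move together, and the share of all probes was not counted. These places are thus a description only.

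**Figure D1:**
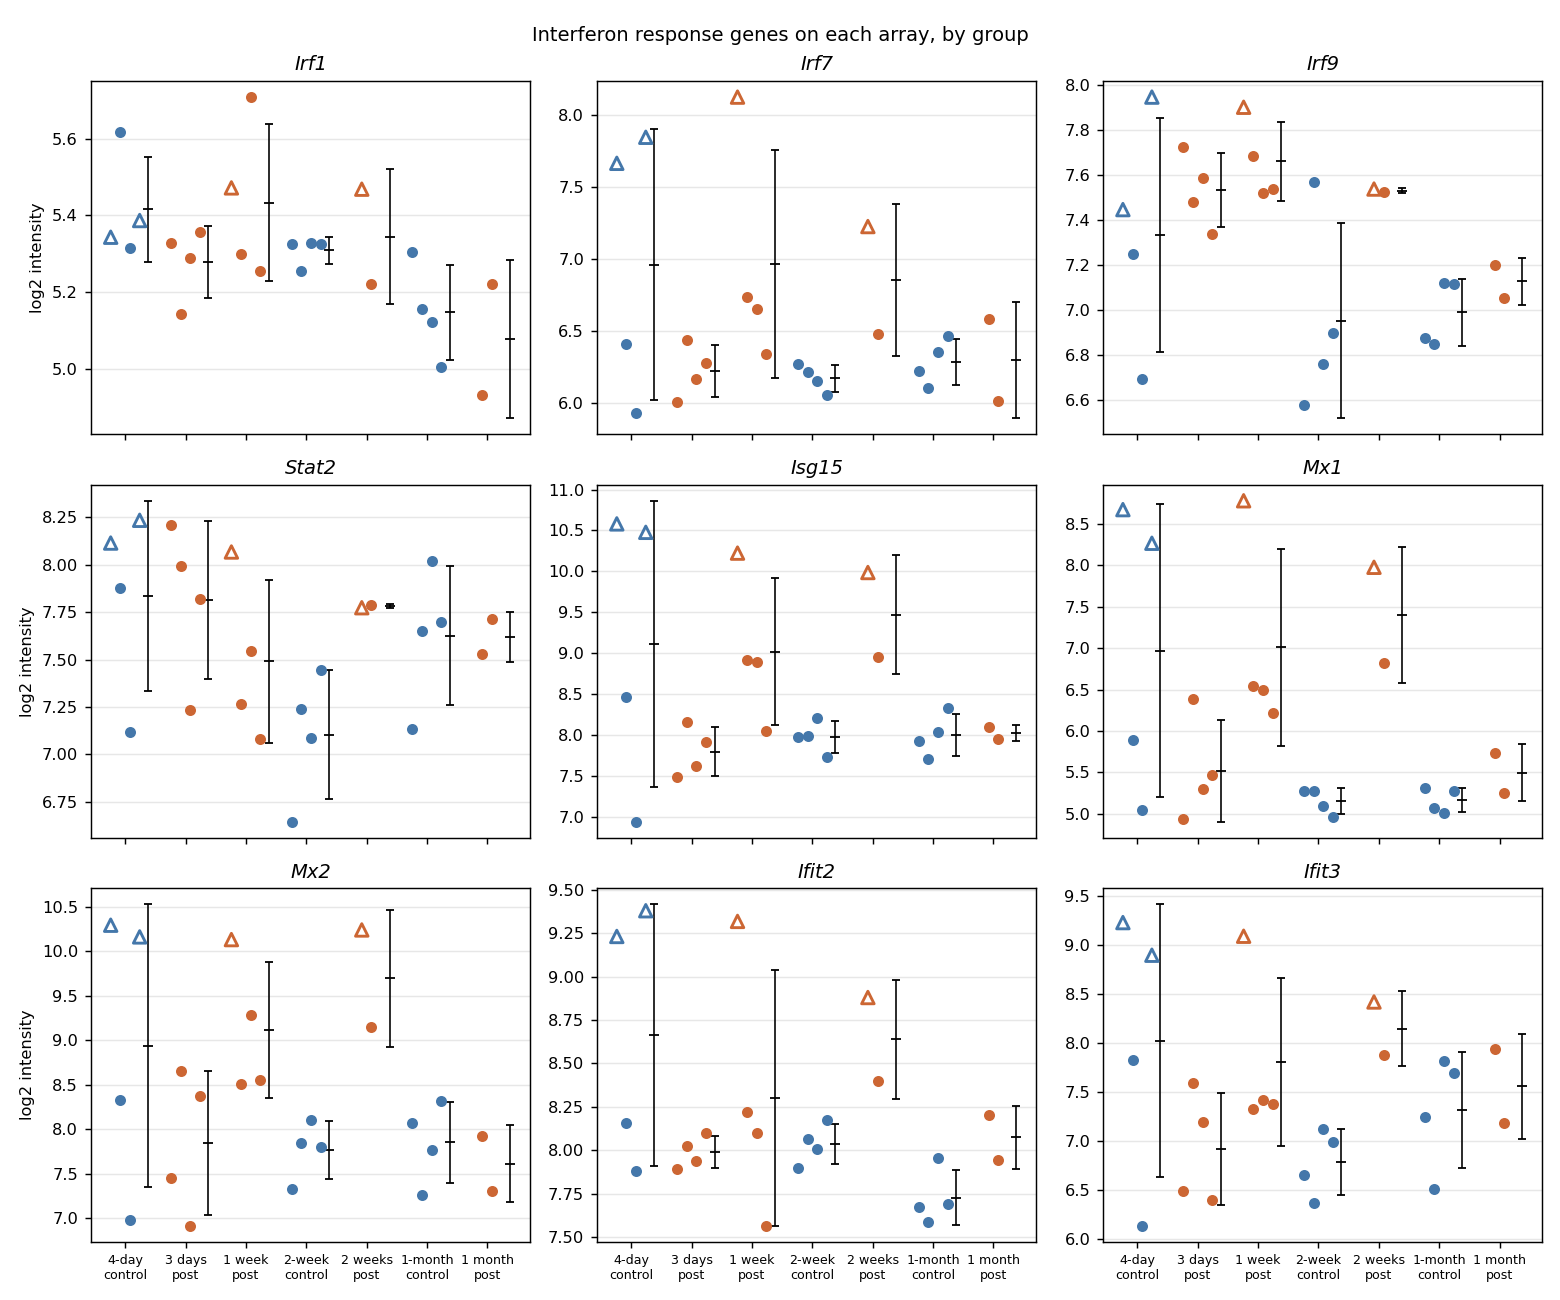
Log2 intensity (y axis of each panel, each with its own range) of the 9 interferon response genes on the 24 arrays, by group along the x axis; blue marks controls, orange marks transected animals, open triangles mark the 4 arrays that stand apart, and black bars are group mean ± SD (n = 4, or n = 2 at 2 weeks and 1 month post). In Irf7, Isg15, Mx1, Mx2, Ifit2 and Ifit3 the triangles are the 4 highest points of all 24 and belong to both injured and uninjured animals.

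Irf9, Stat2 and Irf1 did not follow these 4 arrays as closely. Stat2, a part of ISGF3, measured 8.11 and 8.23 on the high 4-day control arrays but 8.21 on array 1 of the 3-day group, and 3 of the 4 arrays were among its 4 highest. Irf9, the DNA-binding part of ISGF3, had 2 of the 4 arrays among its 4 highest and ranged 2.58-fold. Irf1, which drives interferon gamma responses, ranged only 1.71-fold (4.93 to 5.71), and its highest value was on array 4 of the 1-week group.

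Over 24 arrays, a member's log2 value correlated with the mean of the other 8 at r of 0.96 for Isg15, 0.96 for Mx1, 0.95 for Irf7, 0.93 for Mx2, 0.90 for Ifit2 and 0.87 for Ifit3, but 0.64 for Irf9, 0.54 for Stat2 and 0.33 for Irf1. Over the 20 arrays left without the 4 high ones, r was 0.85 for Isg15, 0.83 for Mx2, 0.82 for Irf7, 0.81 for Mx1, 0.60 for Ifit3, 0.53 for Irf9, 0.48 for Ifit2, 0.24 for Stat2 and 0.12 for Irf1. The points share the RNA pool and hybridization of each array.

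The spread within groups differed accordingly. The median SD of the members was 0.94 in the 4-day controls, where the median over all probes was 0.19, and 0.77 against 0.15 at 1 week after transection. In each of these 2 groups 5 of the 9 members were among the 100 probes with the largest SD. In the other groups of 4 the members were closer to the rest, at 0.19 against 0.14 in the 2-week controls, 0.16 against 0.13 in the 1-month controls and 0.30 against 0.15 at 3 days. The fit shares 1 spread per gene over all groups. Its SE can thus be too wide between quiet groups and too narrow against the 4-day controls. At 1 month after transection Isg15 had an SE of 0.68, beside SDs of 0.10 in the transected animals and 0.26 in their controls.

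Among other genes of the pathway, type I effectors and sensors most often had the same 4 arrays on top. Of 87 further genes above the filter, 14 had the same 4 arrays on top: 12 of 39 type I effectors (Oas1a, Oas1b, Oas1i and Oasl2 of the oligoadenylate synthetase family, which sense double-stranded RNA, the antiviral enzyme Rsad2, Ifi44, Ifi27, Dtx3l, Herc6, Ube2l6, Rtp4 and Slfn4) and 2 of 11 nucleic acid sensors (Rig1, which encodes RIG-I, and Dhx58). None of 3 ligands, 6 receptor genes, 10 transducers and regulators, or 18 interferon gamma effector and class I genes did, nor any of 59 listed markers of neurons, glia, vessels or blood cells above the filter. This count is strict. In the mean of the 18 interferon gamma effector and class I genes the 4 arrays held places 4, 3, 1 and 8 of 24. In that of the transducers and regulators they held places 8, 2, 1 and 4. Places were 13, 5, 4 and 11 for receptors and 16, 21, 13 and 2 for ligands. Ube2l6 and Herc6 encode enzymes that attach Isg15 to its targets in the mouse.

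The 10 genes most like the members, by Pearson's r with their mean centred log2 over 24 arrays, were Rig1 (0.91), Herc6 (0.90), Oas1b (0.89), Rsad2 (0.89), Dhx58 (0.88), Oasl2 (0.88), Oas1a (0.88), Cxcl10 (0.86), Ifi27 (0.85) and RT1-S3 (0.85). All but RT1-S3 were in the pathway list. Over the 20 arrays without the high ones r ran from 0.40 for Oas1a to 0.73 for Rig1. Cxcl10, a chemokine that attracts T cells, measured 8.77 and 8.40 on the 2 high 4-day control arrays, 8.90 on the high 1-week array and 7.60 on the high 2-week array, and at most 8.10 on the other 20.

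**Figure D2:**
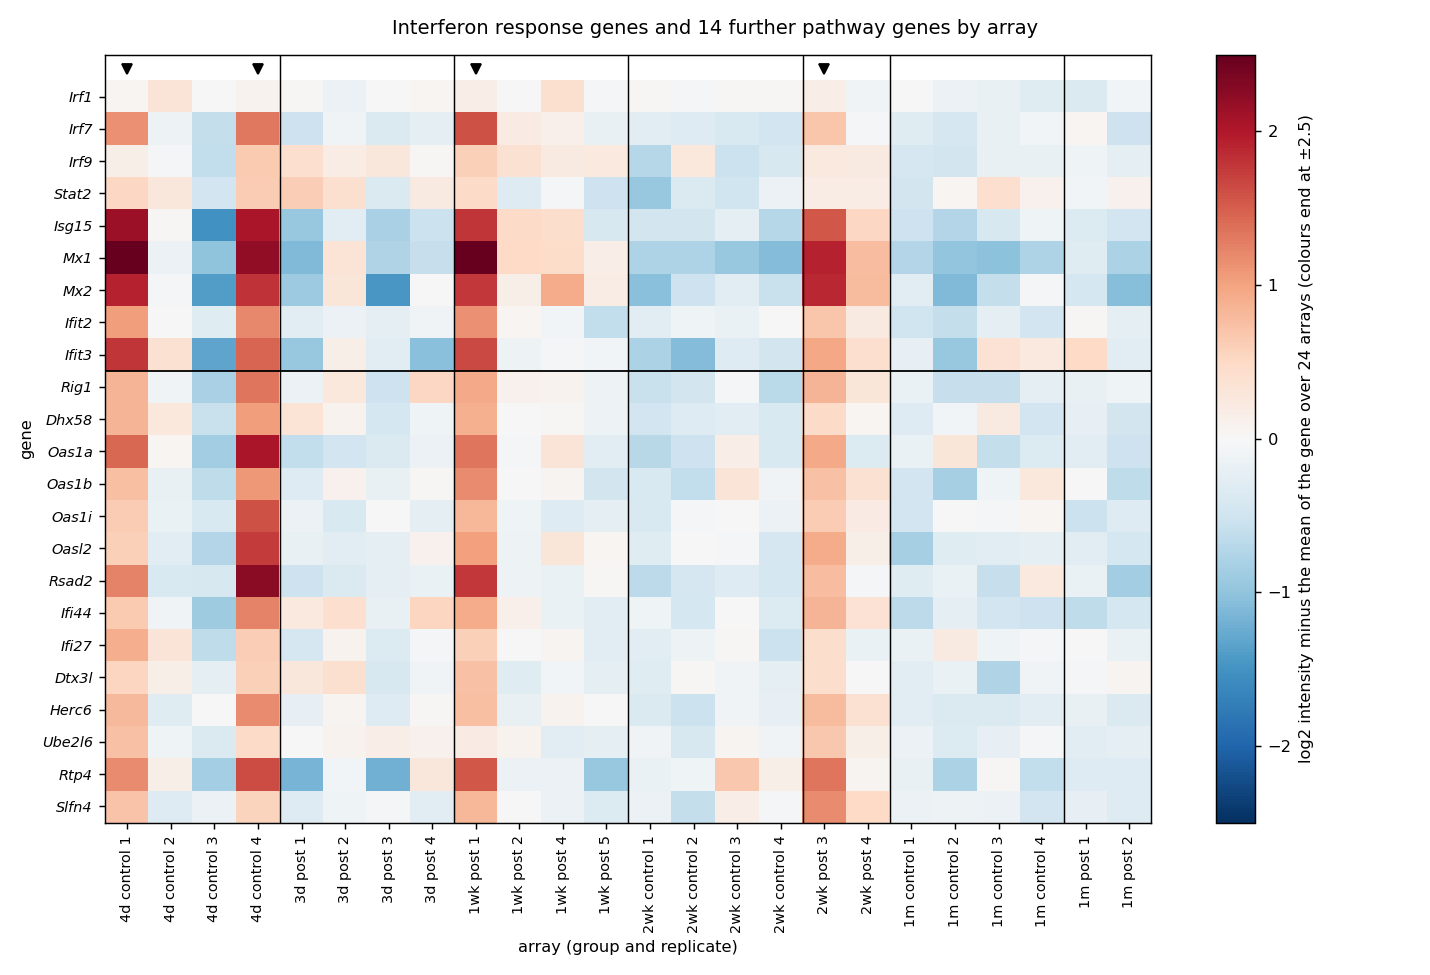
Log2 intensity minus the gene's mean over 24 arrays (colour, red above and blue below) for the 9 interferon response genes (above the line) and the 14 further pathway genes with the same 4 arrays on top (below it), with arrays along the x axis in group order. Black triangles mark the 4 arrays, whose columns are red for all 14 of these genes and all 9 members, while array 3 of the 4-day controls is the bluest for Isg15 and Ifit3.

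At 3 days after transection the members lay lower than in the 4-day controls, but no change passed the test. None of the 9 was called at an adjusted p under 0.05 (limma across all probes), where 671 of 23240 probes (2.89%) were called, 465 higher and 206 lower. At an unadjusted p under 0.05 there were 4 members and 3302 probes. The median log2 difference was -0.74 (8 of 9 lower) against -0.01 over all probes. The difference was -1.45 for Mx1 (SE 0.62, adjusted p = 0.271) and -1.32 for Isg15 (SE 0.56, adjusted p = 0.264). For Irf9, the only member above its controls, it was 0.20 (SE 0.20, adjusted p = 0.768). The groups overlapped for all 9 members.

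These differences depended on individual control arrays. Without the 4 high arrays, which leaves 2 of the 4-day controls, the 3-day median was 0.06, with Isg15 at 0.09 (SE 0.32) and Mx1 at 0.05 (SE 0.29), and no member was called (smallest adjusted p = 0.226). Without array 3 of the 4-day controls, the lowest of all 24 in Isg15, Irf7 and Ifit3, Isg15 fell by 2.04 (adjusted p = 0.0120) and Ifit3 by 1.73 (adjusted p = 0.0297). In that fit 2 of 9 members were called where 683 of 23240 probes (2.94%) were. Leaving out the lowest control removes spread and widens the difference, so these adjusted p are too small. Microglial markers took the other direction, 12 of 15 being called higher at 3 days with a median difference of 1.15, so the 3-day animals had the highest microglial sums beside member means of -0.44 to 0.07 around the mean of all arrays. Their part in the members' values was not tested.

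At 1 week after transection the members as a whole lay level with the 4-day controls. None of the 9 was called and 0 of 23240 probes (0%) were, while 0 members and 1031 probes had an unadjusted p under 0.05. The median difference was 0.00 (-0.36 for Ifit2 to 0.33 for Irf9), and all groups overlapped. Each side of this comparison held high arrays, 2 among the controls and 1 among the transected animals. Without the 4 high arrays the median was 0.41, with Mx2 at 1.13 (SE 0.47), Mx1 at 0.95 (SE 0.31) and Isg15 at 0.92 (SE 0.34), and no member was called (smallest adjusted p = 0.797).

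At 2 weeks after transection all 9 members lay above the 2-week controls, and for 7 of 9 both transected arrays lay above all 4 control arrays, which held for 2301 of 23240 probes (9.90%). With 2 transected animals none of the 9 members was called, nor any of 23240 probes (0%); 6 members and 1229 probes had an unadjusted p under 0.05. The median difference was 0.68 against 0.00 over all probes. Mx1 was 4.74-fold higher (2.24 on the log2 scale, SE 0.76, adjusted p = 0.801), and for Mx2 the difference was 1.93 (SE 0.69, adjusted p = 0.801). For Isg15 it was 1.49 (SE 0.68, adjusted p = 0.905), and for Ifit3 it was 1.36 (SE 0.63, adjusted p = 0.910).

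In contrast to 3 days, part of this difference remained without the high array. Array 4 of the 2-week group, which is not one of the 4, lay above all 2-week controls in Irf7, Stat2, Isg15, Mx1, Mx2, Ifit2 and Ifit3. The share of all probes with array 4 alone above all 2-week controls was not counted, and several members move together across arrays. The places of array 4 are thus a description only. Without the high 2-week array, 1 animal was left, assumed to vary like the other groups. Differences shrank to 1.67 for Mx1 (SE 0.98), 1.39 for Mx2 (SE 0.89), 1.09 for Ifit3 (SE 0.83) and 0.98 for Isg15 (SE 0.88). They also shrank for Ifit2 (0.60 to 0.36) and Irf7 (0.68 to 0.31). Irf9 (0.57) and Stat2 (0.68) changed little, and Irf1 turned to -0.09. The median stayed at 0.68 only because Stat2 took the middle place from Irf7. Leaving out all 4 high arrays gave the same differences with a smaller SE, 0.38 for Mx1. The spread shared between groups then lacks the arrays picked for high values. Microglial markers lay higher too, by a median of 0.72, with both arrays above all controls for 12 of 15 markers and none called. Their part in the members' values was not tested.

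At 1 month after transection the members lay close to the 1-month controls. None of 9 was called, nor any of 23240 probes (0%), and 0 members and 799 probes had an unadjusted p under 0.05. Differences ran from -0.24 for Mx2 to 0.35 for Ifit2 (SE 0.37) with a median of 0.02. All groups overlapped, and Isg15 at 8.10 and 7.96 lay within the 7.71 to 8.34 of its controls. Neither group held a high array.

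**Figure D3:**
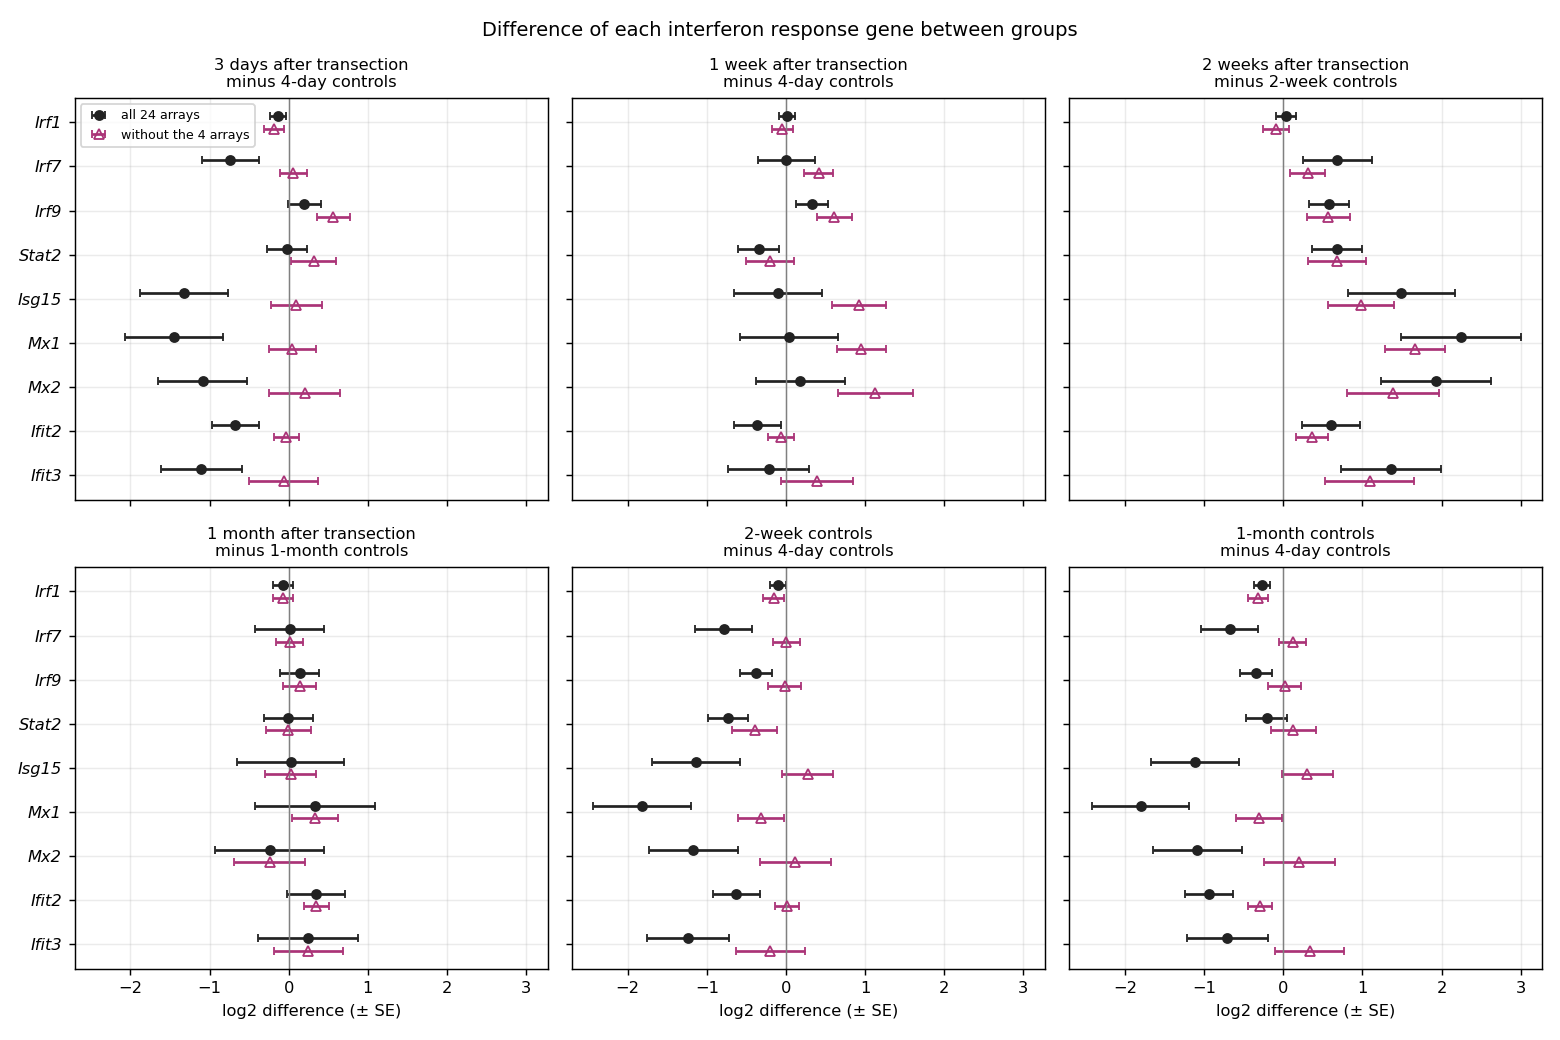
Log2 difference ± SE (x axis) of each interferon response gene (y axis) in 6 comparisons, from all 24 arrays (black circles) and without the 4 arrays that stand apart (purple triangles). The negative differences at 3 days and between controls move to near 0 without these arrays for Irf7, Isg15 and Mx2. At 2 weeks, with 1 transected animal left, Mx1, Mx2, Isg15 and Ifit3 stay at 0.98 or more. Irf7 and Ifit2 fall to 0.31 and 0.36 there.

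The times were also set against each other. Between 3 days and 1 week after transection, 0 of 9 members and 574 of 23240 probes (2.47%) were called. For 3 days minus 1 week, Mx1 was at -1.49 (SE 0.62, adjusted p = 0.296). Without the 4 high arrays, picked for their high values, Mx1 was at -0.90, with an SE (0.26) that understates the spread. The effect at 2 weeks minus that at 3 days was above 0 for all 9 members, with a median of 1.42, and 6 members had an unadjusted p under 0.05, but none was called (smallest adjusted p = 0.280) where 21 probes (0.0904%) were. Without the 4 high arrays this median was 0.39, still with 9 of 9 above 0. The effect at 1 month minus that at 3 days gave 0 members and 21 probes (0.0904%). The average over the 4 times gave 0 of 9 members and 94 probes (0.404%), with a median of 0.07, which was 0.42 without the 4 high arrays, with 8 of 9 above 0.

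Among uninjured animals the 4-day controls had the higher mean in all 9 members against both later control groups. The 2-week minus 4-day median was -0.79, with Mx1 at -1.82 (SE 0.62, adjusted p = 0.200) and Stat2 at -0.73 (SE 0.25, adjusted p = 0.207); no member and 0 of 23240 probes (0%) were called, while 5 members and 3315 probes had an unadjusted p under 0.05. The 1-month minus 4-day median was -0.71, with Ifit2 at -0.94 (SE 0.30, adjusted p = 0.199), and 0 of 9 members and 1 probe (0.0043%) were called. Irf1 was the only member whose 1-month controls all lay below the 4-day controls, at 5.30, 5.16, 5.12 and 5.01 against 5.34, 5.62, 5.32 and 5.39, which held for 2.55% of probes. Between the 1-month and 2-week controls the median was 0.04, and 0 of 9 members were called beside 2366 probes (10.2%).

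These control differences depended on the same arrays. Without the 4 high arrays the median was -0.02 for 2-week minus 4-day controls and 0.12 for 1-month minus 4-day controls, with Isg15 at 0.28 and 0.30. Without array 3 of the 4-day controls, 5 of 9 members were called lower in the 2-week controls where 1288 of 23240 probes (5.54%) were called, Mx1 at -2.46 (adjusted p = 0.0173), Ifit3 at -1.87 (adjusted p = 0.0167), Isg15 at -1.86 (adjusted p = 0.0190), Mx2 at -1.83 (adjusted p = 0.0353) and Stat2 at -0.97 (adjusted p = 0.0267). Array 3 was the lowest 4-day control in all 5. Leaving it out removes spread and widens the difference, so these adjusted p are too small and serve as a description. When arrays were weighted by quality, which gave array 3 of the 4-day controls a weight of 0.328, Mx1 (adjusted p = 0.0399) and Stat2 (adjusted p = 0.0433) were called, beside 787 of 23240 probes (3.39%).

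In the order of group means, the 2-week transected, 1-week transected and 4-day control groups held the top 3 places in 7 of the 9 members. The 3-day group was second in Irf9 (7.53 ± 0.16, SD, n = 4) and second in Stat2 (7.81 ± 0.42). The 2-week controls were last in 5 members, as in Ifit3 (6.78 ± 0.34) and Mx1 (5.16 ± 0.16). Of 54 pairs of neighbours in these orders, only 4 differed by more than the larger SD of the pair: Irf7 at 2 weeks above 1 month after transection, Isg15 at 1 week above 1 month after transection, and Irf1 and Ifit2 at 3 days above the 1-month controls.

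The rest of the pathway was read from a list of 137 genes, of which 93 had a probe and 87 passed the filter. Among the ligand genes, Ifnb1 (median 4.92 over 24 arrays) and Ifng (4.83) did not pass the filter, and Ifna4, Ifna5 and Ifnk did, with medians of 6.22, 6.78 and 5.18. Ifna5 is one of several near-identical genes, so its probe cannot be assigned to 1 of them with certainty. None of the 3 was among those called after transection.

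Against 4-day controls, 3 of 87 pathway genes were called at 3 days, all 3 higher, a share similar to the 2.89% of all probes called. Tlr7, an endosomal sensor of single-stranded RNA, measured 7.84, 8.21, 7.80 and 8.15 at 3 days against 6.49, 7.08, 5.67 and 7.07 in the controls, a difference of 1.42 (SE 0.26, adjusted p = 0.00323). Ifngr1, the ligand-binding chain of the interferon gamma receptor, measured 9.94, 9.91, 9.70 and 9.75 against 8.84, 9.27, 8.18 and 9.39, a difference of 0.90 (SE 0.19, adjusted p = 0.00870). Ptpn6, a phosphatase of blood-derived cells that dampens receptor signaling, measured 7.74, 7.46, 7.11 and 7.34 against 6.70, 6.71, 6.54 and 6.84, a difference of 0.72 (SE 0.12, adjusted p = 0.00142). In all 3 genes the groups did not overlap, which held for 2.75% of probes in this direction. The 3 were picked by the test on these same arrays, so the lack of overlap adds no support.

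These 3 genes rose at a time when none of the members was called and when 12 of 15 microglial markers rose, whose part in them was not tested. Tlr7 and Ptpn6 were also called between the 2 early times, where 3 days minus 1 week gave 1.20 for Tlr7 (SE 0.26, adjusted p = 0.0146) and 0.48 for Ptpn6 (SE 0.12, adjusted p = 0.0310), and Ptpn6 over the average of the 4 times (0.41, SE 0.07, adjusted p = 0.0117). Between the early times, Tlr7 was called in 16 of 19 other settings and Ptpn6 in only 9 of 19. When only the compared groups were fitted, none of the 3 was called at 3 days (adjusted p = 0.225 for Ifngr1, 0.105 for Ptpn6 and 0.135 for Tlr7). Of the 39 type I effectors none was called at 3 days, 25 lay lower, and the median was -0.14, while without the 4 high arrays 29 lay higher and the median was 0.07.

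At 1 week 0 of 87 pathway genes were called and the median was -0.02. At 2 weeks 76 of 87 lay higher, with a median of 0.34 against 0.00 over all probes, and both transected arrays lay above all 4 controls in 43 of 87, against 9.90% of probes. By type the 2-week medians were 0.62 for 11 sensors and adaptors, 0.50 for 39 type I effectors, 0.28 for 10 transducers and regulators, 0.20 for 6 receptors and kinases, 0.18 for 18 interferon gamma effectors and class I genes, and 0.10 for 3 ligands. None was called (smallest adjusted p = 0.434). Without the high 2-week array 72 of 87 still lay higher, but the medians were 0.25 over the 87, 0.36 for sensors and adaptors, 0.29 for type I effectors, 0.07 for interferon gamma effectors and class I genes and 0.05 for ligands. At 1 month 48 of 87 lay higher, with a median of 0.03, and 0 were called.

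Among controls, 75 of 87 pathway genes lay lower at 2 weeks than at 4 days (median -0.27) and 78 of 87 lower at 1 month than at 4 days (median -0.30), with none called in either. Both depended on the 4-day arrays: without the 4 high arrays 52 of 87 and 56 of 87 lay lower, with medians of -0.05 and -0.08. Leaving out array 3 of the 4-day controls instead gave medians of -0.41 and -0.47, and leaving out array 4 gave -0.16 and -0.24. Between the 1-month and 2-week controls 5 of 87 were called where 10.2% of probes were. Ptpn11, a signaling phosphatase, was higher by 0.46 (adjusted p = 0.0201), the RNA-editing enzyme Adar by 0.42 (adjusted p = 0.0268) and the tryptophanyl-tRNA synthetase Wars1 by 0.38 (adjusted p = 0.0363), while the peptide transporter Tap1 fell by 0.53 (adjusted p = 0.0110) and Ifna5 by 0.41 (adjusted p = 0.00351). Among the most abundant probes of each list, B2m, the light chain of class I molecules, ran from 11.50 to 12.08 over the 24 arrays and Jak1 from 10.02 to 10.52. The ranges were wider for Ifngr1 (7.98 to 9.94), Ifitm3, a membrane protein that blocks virus entry (8.77 to 10.42), Ifi27 (9.16 to 10.71) and Tlr3, a sensor of double-stranded RNA (6.66 to 8.07).

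The 4 arrays were also set against their microglial markers. Within its group, array 1 at 1 week had the highest microglial sum (7414 against 5357 to 5877). Array 3 at 2 weeks lay above array 4 (5540 against 4166). Among the 4-day controls, arrays 1 and 4 (4869 and 5144) lay between array 3 (2247) and array 2 (6086). Of 24 arrays ordered by the microglial sum, the 4 held places 12 and 11 (4-day controls 1 and 4), 5 (1-week array 1) and 9 (2-week array 3), behind all 4 of the 3-day arrays. For 7 astrocyte markers they held places 2, 1, 3 and 19. Array 3 of the 4-day controls, the lowest in the mean of the members, was also last for microglial and for endothelial markers. The part of these cells in the members' values was not tested.

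**Figure D4:**
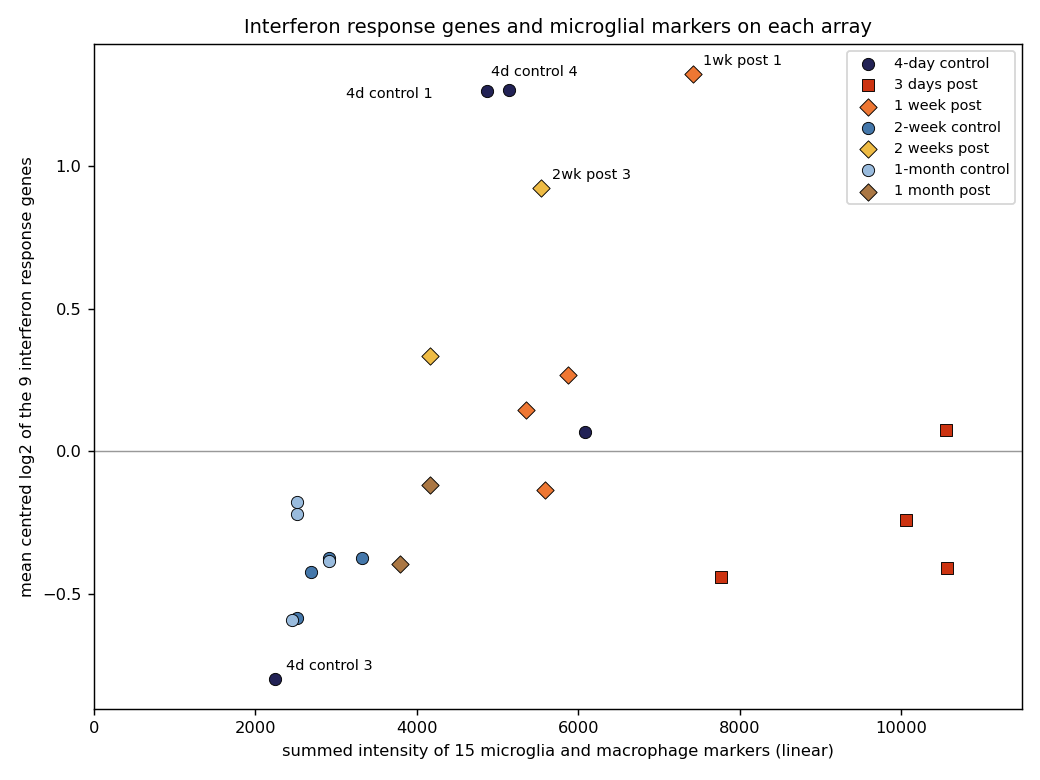
Mean centred log2 of the 9 interferon response genes (y axis) against the summed linear intensity of 15 microglia and macrophage markers (x axis) on each of the 24 arrays, with shape and colour for the 7 groups. The 4 high arrays lie at microglial sums of 4869 to 7414, the 3-day arrays at 7768 to 10567 with member means of -0.44 to 0.07, and array 3 of the 4-day controls is lowest on both axes.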

How the data were processed

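Laser-captured neurons of each rat were hybridized to 1 Rat Gene 1.0 ST array (Affymetrix), 24 in all. The authors applied RMA, with quantile normalization, in GeneSpring GX. The deposited intensity values are linear, from 17 to 7979.81, as judged by their range, and log2 of them was analysed. Background was handled by the authors within RMA, no detection call is used here, and precision is limited by how many arrays each group has. Probes took symbols from the platform annotation (15097 of 27342 with 1 symbol, 323 with several, 11922 with none). Probes above the lowest 15 percent of mean log2 (5.05, an intensity of 33.2) were tested, 23240 in all.

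Group means were fitted over all 24 arrays with limma 3.58.1 (R 4.3.3), moderated by empirical Bayes, and p-values were adjusted by Benjamini-Hochberg within each of 11 comparisons. Every adjusted p comes from this fit unless another setting is named. Members are the 9 listed genes. Named pathway genes are those called in a comparison, the most abundant of each list and those with the same 4 arrays on top, the last chosen after values were seen. Members and lists were chosen with earlier results of these data known. Other settings were filters, normalizations, array weights, the compared groups alone, pooled controls, the methods' t-test, a replicate block and leaving out arrays. The fit was tested on simulated data. Python 3.11.15, pandas 2.3.3, numpy 2.4.6 and matplotlib 3.10.9 were used for tables and plots.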

Additional observations from a re-analysis of the deposited data

Results flagged for a closer look

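In 3 of 45 groups of 4 arrays (9 members in 5 groups) 1 array lay beyond Dixon's limit, where chance gives about 1 in 20. Array 1 of the 1-week transected group was far above its group in Mx1 (8.78) and in Ifit3 (9.09), and it is one of the 4 arrays that stand apart. Array 2 of the 2-week controls was below its group in Irf1 (5.26), in a group whose values span less than 0.1.

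The effects at 3 days and at 1 week, which share their controls, differed by the test of the difference itself in 2 pathway genes, Tlr7 (1.20) and Ptpn6 (0.48). The call held in 16 of 19 other settings for Tlr7 but in only 9 of 19 for Ptpn6. The 2 highest and the lowest Isg15 values of the series were all on uninjured arrays of 1 group.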

How the results depend on the processing

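In 226 of 231 alternatives the count of members called in a comparison was unchanged at 0. It became 2 (2-week minus 4-day controls) and 1 (1-month minus 2-week controls, Stat2 at 0.60) with array weights. Leaving out 1 array gave 0 to 2 calls at 3 days, 0 to 5 for 2-week minus 4-day controls and 0 to 1 for the effect at 2 weeks minus that at 3 days, each time without array 3 of the 4-day controls. That array was the lowest in the mean of the members, so leaving it out removes spread and the adjusted p behind these calls are too small. Single genes kept direction and call in 987 of 1070 alternatives.

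Leaving out the 4 high arrays, a setting added after seeing the data, turned the sign at 3 days for Irf7 (0.056), Stat2 (0.31), Isg15 (0.094), Mx1 (0.047) and Mx2 (0.20), at 2 weeks for Irf1 (-0.088), for 3 days minus 1 week for Ifit2 (0.026), for 2-week minus 4-day controls for Irf7 (0.0052), Isg15 (0.28), Mx2 (0.12) and Ifit2 (0.014), and for 1-month minus 4-day controls for Irf7 (0.12), Irf9 (0.020), Stat2 (0.13), Isg15 (0.30), Mx2 (0.20) and Ifit3 (0.33). At 3 days Stat2 also turned with cyclic loess (0.010) and with all 12 controls pooled (0.29). Without 1 array each, values ran from -0.26 to 0.17 for Stat2 and -0.014 to 0.40 for Irf9 at 3 days, -0.088 to 0.16 for Irf1 at 2 weeks and -0.56 to 0.026 for Ifit2 between 3 days and 1 week. The causes were not tested.

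With all 12 controls pooled the member medians were -0.25 at 3 days, 0.49 at 1 week, 0.50 at 2 weeks and -0.17 at 1 month, with none called. Of 87 pathway genes, 3 were called at 3 days in the fit reported, 0 with the compared groups alone or the methods' t-test and 11 with pooled controls, and 5 between 1-month and 2-week controls became 2 to 10. The probes called at 3 days were 671, 22 with the compared groups alone, 0 with the methods' t-test and 2117 with pooled controls. Those between 1-month and 2-week controls were 2366, 5404 with array weights and 1064 to 1117 with another normalization.

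Replicate numbers did not pair the animals (mean r 0.0215 in 55 pairs that share a number, -0.0063 in 189 others). A replicate block left 0 members called in each comparison, with Mx1 at 2.47 at 2 weeks, and in place of 671 and 574 probes at 3 days and between 3 days and 1 week it called 759 and 395. The mean over all probes of a symbol was not run, since each member had 1 probe. With 2 animals at 2 weeks and at 1 month, and Mx1 and Irf1 near the low end of the range, differences in those groups were not detectable unless large.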
